A study of Mus musculus with 8 samples.

Results

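Opposite-strand genes are annotated by the name of a neighbouring gene, here called the partner, with the ending os, os1, os2 or os3, and are transcribed from the other DNA strand. The 43 members described here were chosen by their name and their level: they are the genes with such an ending whose stem is itself a gene of the files and whose level reached 1 FPKM (fragments per kilobase of transcript, scaled to library size) in at least 2 of 8 libraries, leaving out Epb41l4aos. They come from 297 opposite-strand names with a stem gene, of which 96 were listed at 0 in every library, and from 55358 genes in all. Each member was set against its partner over 4 groups of mouse embryonic fibroblasts (MEFs), cells of connective tissue cultured from mouse embryos. The groups were Arid5a-/- cells (KO) given 100 ng/ml interleukin 6 (IL-6) for 24 h, KO cells without IL-6, wild-type (WT) cells with the same IL-6, and WT cells without it, with 2 libraries each. Arid5a encodes an RNA-binding protein, and the series asked which long non-coding RNAs (lncRNAs) belong to IL-6 and Arid5a signalling. The labels give no strain, embryo, sex, passage or clone for either genotype. Nor do they state whether the 2 libraries within a group are separate cultures; p-values therefore cover the spread of these libraries alone, and that spread can be technical.

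Transcripts of the opposite strand often start near the promoter of their partner and run away from it, or start within the partner and run against it. Some act on their neighbour, some act elsewhere, and for most no function is known. Dnm3os carries the microRNAs of the miR-199a and miR-214 cluster, Oip5os1 is the conserved lncRNA also called Cyrano, and Hand2os1 is the lncRNA also called Upperhand. In GENCODE M21, 38 of the 43 members are non-coding, but Brd3os, Ccpg1os, Cebpzos, Slc7a6os and Wdr83os are annotated as protein-coding, so the name lncRNA does not hold for these 5. Wdr83os, for example, encodes a small membrane protein of the endoplasmic reticulum.

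KO and WT libraries differed in much besides Arid5a. Arid5a itself stood at 5.51 to 8.47 FPKM in KO libraries, against 15.9 to 31.0 FPKM in WT libraries. Xist, the RNA of the inactive X chromosome, was at 55.2 to 61.0 FPKM in KO libraries, against at most 0.00562 FPKM in WT libraries, and the summed level of 4 Y-linked genes was at most 0.0651 FPKM in KO libraries, against 116 to 122 FPKM in WT libraries. All 6 of 6 mesothelial markers were called higher in KO in both comparisons (summed level 1495 to 1548 FPKM in KO libraries, against 38.5 to 52.8 FPKM in WT libraries), and all 6 of 6 limb mesenchyme markers were called lower (18.7 to 20.5 FPKM in KO libraries, against 258 to 291 FPKM in WT libraries). Of 4 epithelial markers, Krt14 was at 61.4 to 66.0 FPKM in KO libraries and listed at 0 in all WT libraries. Cdh1 was at 5.78 to 6.15 FPKM in KO libraries, against 0.197 to 0.527 FPKM in WT libraries. Epcam was at 0.487 to 0.636 FPKM in KO and 0.421 to 0.662 FPKM in WT. Krt5 was listed at 0 in all 8 libraries. Of 4 endothelial markers, Tek was at 8.62 to 9.55 FPKM in KO libraries, against 0.00625 to 0.118 FPKM in WT libraries. Kdr was at 2.13 to 2.46 FPKM in KO libraries, against 0.00859 to 0.0201 FPKM in WT libraries. Pecam1 and Cdh5 were at most 0.105 FPKM in any library. All 8 of 8 fibroblast markers were tested, and 3 were called higher and 5 lower in KO with IL-6, 2 higher and 5 lower without it. Their summed level was 3285 to 3532 FPKM in KO libraries and 2868 to 3669 FPKM in WT libraries, most of it Col1a1, Col1a2, Col3a1 and Vim. Col1a1 was at 911.7 to 1059 FPKM in KO libraries, against 417.9 to 565.2 FPKM in WT libraries. Col3a1 was at 828.3 to 877.8 FPKM in KO libraries, against 197 to 308.5 FPKM in WT libraries. Pdgfra was at 7.62 to 8.85 FPKM in KO libraries, against 33.2 to 52.4 FPKM in WT libraries. Pdgfrb was at 6.97 to 7.4 FPKM in KO libraries, against 48.1 to 50.3 FPKM in WT libraries. Of 4 neural markers, Tubb3 was at 17.4 to 22.1 FPKM in KO libraries and 7.85 to 10.1 FPKM in WT libraries. Nes was at 5.00 to 5.97 FPKM in KO libraries and 18.4 to 21.2 FPKM in WT libraries. Map2 was at 1.41 to 1.96 FPKM in KO libraries and 11.3 to 17.3 FPKM in WT libraries. Sox10 was at most 0.0197 FPKM in any library. Of 6 macrophage markers, Adgre1 and C1qa were listed at 0 in every library. Cd68 was at 1.43 to 1.98 FPKM in KO and 2.23 to 3.04 FPKM in WT. Summed muscle and erythroid markers were below 1 FPKM in every library. Loss of Arid5a therefore cannot be told apart from sex and from the origin of the cells in any genotype difference below, and in bulk RNA fewer cells of a type cannot be told apart from less RNA per cell. The fitted depth was 37.2 to 46.9 M fragments per library (M, 1e6).

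In GENCODE M21 on GRCm38, 13 of the 43 pairs were arranged head to head without overlap, that is, with starts next to each other and transcripts running apart. Their starts lay 19 (Wt1os and Wt1) to 5199 bases apart, and within 500 bases in 11 of the 13. In 15 more head-to-head pairs the genes overlapped. A further 6 members lay inside the partner, Tnfsf13os reached around Tnfsf13, 4 pairs were tail to tail with overlap and 4 were tail to tail apart. In 23 pairs the member shared exonic bases with its partner, more than 50% of its exonic length in Hoxb3os, Prss23os and Wdr83os. The library kit keeps the strand, but the counting is not stated to use it, so values of these 23 pairs could hold reads of the partner; how much was not tested. Erich2os lies on the same strand within Gad1os on chromosome 2, and the 2 share 0 exonic bases.

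Windows of 250 bases before and 50 bases after the annotated start are printed for pairs with the largest genotype difference or an IL-6 response, to show the sequence around the start. They are RefSeq sequences on GRCm38.p6, which held a window for 31 of the 43 members and for 35 partners. Capitals mark every match, on either strand, to the TATA box as TATAAA, to the CAAT box as CCAAT, to the GC box as GGGCGG or to the core that STAT factors bind as TTCNNNGAA. Of all 32851 windows, 13.62% held the TATA box so defined, 37.41% the CAAT box, 35.66% the GC box and 8.3% the STAT core, and matches within the windows shown did not overlap each other.
Wt1os: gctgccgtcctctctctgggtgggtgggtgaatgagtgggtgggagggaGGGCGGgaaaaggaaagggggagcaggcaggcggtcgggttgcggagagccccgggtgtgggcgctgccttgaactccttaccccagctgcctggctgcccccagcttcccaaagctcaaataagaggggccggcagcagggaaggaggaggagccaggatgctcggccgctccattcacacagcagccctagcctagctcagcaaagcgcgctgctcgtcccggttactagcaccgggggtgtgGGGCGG
Ptgs2: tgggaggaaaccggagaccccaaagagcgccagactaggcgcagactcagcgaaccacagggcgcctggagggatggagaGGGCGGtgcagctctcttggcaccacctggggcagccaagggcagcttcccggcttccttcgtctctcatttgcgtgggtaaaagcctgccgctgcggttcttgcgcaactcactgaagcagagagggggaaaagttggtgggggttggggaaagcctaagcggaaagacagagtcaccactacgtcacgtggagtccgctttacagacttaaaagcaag
Hand2os1: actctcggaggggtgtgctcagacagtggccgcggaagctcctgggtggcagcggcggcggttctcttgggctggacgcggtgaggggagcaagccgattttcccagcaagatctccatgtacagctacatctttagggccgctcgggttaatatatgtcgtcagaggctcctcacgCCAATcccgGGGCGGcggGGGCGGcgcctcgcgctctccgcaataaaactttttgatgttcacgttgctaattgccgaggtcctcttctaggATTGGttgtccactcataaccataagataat
Hoxa11os: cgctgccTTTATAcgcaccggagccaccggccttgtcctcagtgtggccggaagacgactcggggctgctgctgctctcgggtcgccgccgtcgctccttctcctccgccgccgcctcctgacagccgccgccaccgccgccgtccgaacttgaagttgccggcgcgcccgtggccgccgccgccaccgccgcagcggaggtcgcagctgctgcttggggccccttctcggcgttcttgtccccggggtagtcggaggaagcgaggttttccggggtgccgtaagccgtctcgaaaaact
The Wt1os window (chr2:105126461-105126760, minus strand) holds the start of Wt1os at base 251 and that of Wt1, on the other strand, at base 232. The Ptgs2 window (chr1:150099781-150100080, plus strand) holds the start of Ptgs2 at base 251 and that of Ptgs2os, on the other strand, at base 183. The Hand2os1 window (chr8:57320810-57321109, minus strand) holds the start of Hand2 at base 127, and the Hoxa11os window (chr6:52244993-52245292, plus strand) holds no start of its partner. The GENCODE M21 gene starts of Hand2os1 (57324233, 3250 bases from that of Hand2) and Hoxa11os (52244393, 1417 bases from that of Hoxa11) lie outside these windows, which are set on RefSeq starts. By these matches, the Wt1os and Hand2os1 windows each held 2 GC boxes and the Ptgs2 window 1, and Hand2os1 also held 2 CAAT boxes. The Hoxa11os window held 1 match to TATAAA, at bases 8 to 13 and on the other strand. None of the 4 windows matched the STAT core. They held 16, 16, 23 and 41 CG dinucleotides in the order printed, against a median of 7 over all windows.

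Most members were far less abundant than their partners. The median level over the 8 libraries was 1.83 FPKM for members and 13.582 FPKM for partners, against 13.117 FPKM over all 13693 genes tested (1 FPKM or more in at least 2 libraries). FPKM is per length, so a member and its partner were set side by side. Levels of short transcripts can rest on few fragments, as for Rab26os below. The member was below its partner in all 8 libraries in 28 pairs and above it in all 8 in Brip1os, Chrna1os, Dnm3os, Foxd2os, Hoxd3os1, Oip5os1, Rab26os and Wdr83os; the other 7 pairs were mixed. The median member stood at 23.67% of its partner.

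The members with the highest FPKM were Wdr83os, Brip1os, Oip5os1, Slc7a6os and Rab26os. Wdr83os had 37.9 to 43.6 FPKM in KO libraries and 53.5 to 63.5 FPKM in WT libraries. Brip1os had 37.2 to 38.5 FPKM in KO and 43.4 to 44.9 FPKM in WT. Rab26os, inside the gene of the small GTPase Rab26, had 17.7 to 23.5 FPKM in KO libraries and 22.7 to 35.5 FPKM in WT libraries. Of this level, 98.55% was Rab26os-202, a transcript of 298 bases. The Rab26os level rested on 103.5 to 112.3 estimated fragments in KO libraries and 119.2 to 172.1 in WT libraries. Rab26 itself had 0.0993 to 0.170 FPKM and 1.05 to 1.46 FPKM in KO and WT. Brip1os was likewise far above Brip1, which encodes a DNA helicase of the Fanconi pathway, at 5.44 to 5.98 FPKM in KO libraries and 7.41 to 8.23 FPKM in WT libraries. Partners of 4 members, Chrna1, Foxd2, Gad1 and Hoxd3, did not reach the level needed for a test. Chrna1, a subunit of the muscle acetylcholine receptor, had at most 0.0296 FPKM in any library, whereas Chrna1os had 1.21 to 3.10 FPKM in KO libraries and 0.638 to 0.874 FPKM in WT libraries. Hoxd3os1 was at 6.76 to 7.12 FPKM in KO and 8.50 to 11.0 FPKM in WT, with Hoxd3 at 0.0638 to 0.225 FPKM in KO and 0.134 to 0.379 FPKM in WT. At the other end, Prss23os stood at 0.352% in KO libraries and 0.247% in WT libraries of the level of Prss23. Junos stood at 1.62% in KO libraries and 5.34% in WT libraries of the level of Jun, and Map2k3os at 2.61% in KO libraries and 3.51% in WT libraries of that of Map2k3.

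Near the limit of 1 FPKM, the third-highest library of Atad3aos, Etaa1os, Hoxb3os and Ptgs2os, just inside, had 0.737, 0.892, 0.977 and 0.987 FPKM. Dhx58os, Ptgs2os2, Ttc39aos1 and Vax2os, just outside, had 0.886, 0.929, 0.706 and 0.877 FPKM in their second-highest library. The limit was reached in KO libraries alone by 7 members (Chrna1os, Dlx4os, Hoxb3os, Peak1os, Prss23os, Tnfsf13os and Wt1os) and in WT libraries alone by 8 (Atad3aos, Erich2os, Etaa1os, Gad1os, Hand2os1, Hoxa11os, Junos and Ptgs2os). The rule thus fixed the direction of the genotype difference of these members in part, and counts over all 43 are given as a description.

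**Figure D1:**
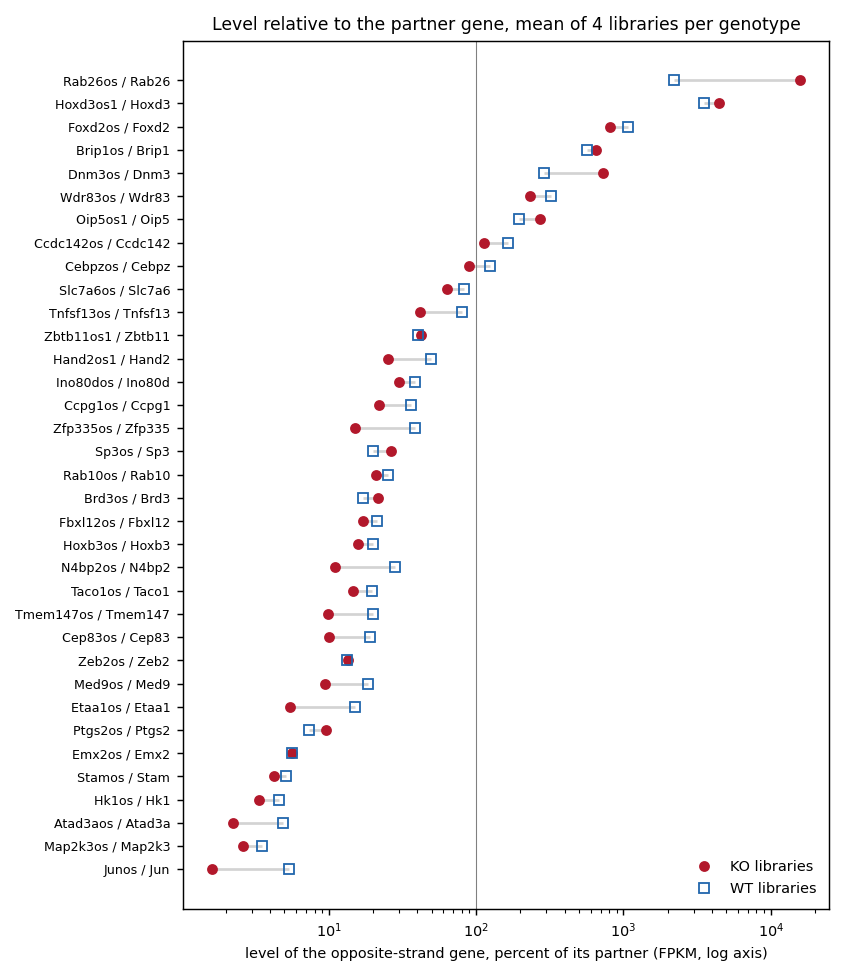
Level of each opposite-strand gene as a percentage of its partner (log axis), from the mean FPKM of the 4 KO libraries (filled circles) and the 4 WT libraries (open squares), for the 35 pairs in which both genes had a mean above 0.1 FPKM in both genotypes. Rab26os and Hoxd3os1 lie far above 100%, and Junos has the lowest KO value drawn (1.62%) and Map2k3os the lowest WT value drawn (3.51%).

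Between genotypes, members differed about as often as any gene. A change is the KO minus WT difference of log2(FPKM + 1) with its standard error, which understates the fold of genes at low levels, and it is called at an adjusted p below 0.05 by limma, Benjamini-Hochberg over the 13693 genes. With IL-6, 30 of 43 members were called (69.8%, against 71.7% of all genes), 9 higher in KO and 21 lower, while 36.9% of all genes were called higher and 34.8% lower. Without IL-6, 31 of 43 were called (72.1%, against 71% of all genes), 9 higher and 22 lower, against 36.4% and 34.5% of all genes. The median change of the 43 was -0.25 with IL-6 and -0.33 without it, and that of all genes 0.0117 with IL-6 and 0.0069 without it. Of the 28 members that reached 1 FPKM in libraries of both genotypes, 2 were called higher and 15 lower with IL-6, and 3 higher and 14 lower without it. Of the 39 partners tested, 33 were called with IL-6 (14 higher, 19 lower) and 28 without it (12 higher, 16 lower).

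Pairs mostly differed in the same direction. With IL-6, member and partner were both called in 23 pairs, 20 of them in the same direction (87.0%). Without IL-6, both were called in 21 pairs, again 20 in the same direction (95.2%). In both comparisons, the same-direction pairs included those of Dlx4os, Erich2os, Hand2os1, Hoxa11os, Hoxb3os, Junos, Peak1os, Prss23os, Ptgs2os, Tnfsf13os and Wt1os. These members reached 1 FPKM in libraries of 1 genotype alone, so the rule fixed their direction in part. The counts, shares and correlations given here include these pairs and are therefore a description. With IL-6, the other same-direction pairs were those of Brip1os, Cep83os, Dnm3os, Hk1os, Rab10os, Rab26os, Sp3os, Stamos and Zfp335os. The pairs of N4bp2os, Oip5os1 and Tmem147os then went in opposite directions. Without IL-6, the other same-direction pairs were those of Brip1os, Ccpg1os, Cep83os, Hk1os, Rab10os, Sp3os, Stamos, Zbtb11os1 and Zeb2os. Only the N4bp2os pair then went in opposite directions. Over 2268 other opposite-strand pairs of tested genes, which overlap or lie head to head within 1000 bases, the share in the same direction was 73.5% (786 of 1070) with IL-6 and 72.6% (762 of 1049) without it. Over the 566 of these with 1 coding and 1 other gene it was 77.6% with IL-6 and 73.1% without it, and whether the members' share differs from these was not tested. In pairs that share no exonic base, both genes were called in the same direction in 7 pairs and in opposite directions in 2 with IL-6, and in 6 and 0 pairs without it. Across the 39 pairs, the changes of member and partner correlated at r = 0.84 with IL-6 and r = 0.84 without it. With both changes under 1 in size, r was 0.32 over 27 pairs with IL-6 and 0.49 over 25 pairs without it. Pairs share all 8 libraries and are no replicates.

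**Figure D2:**
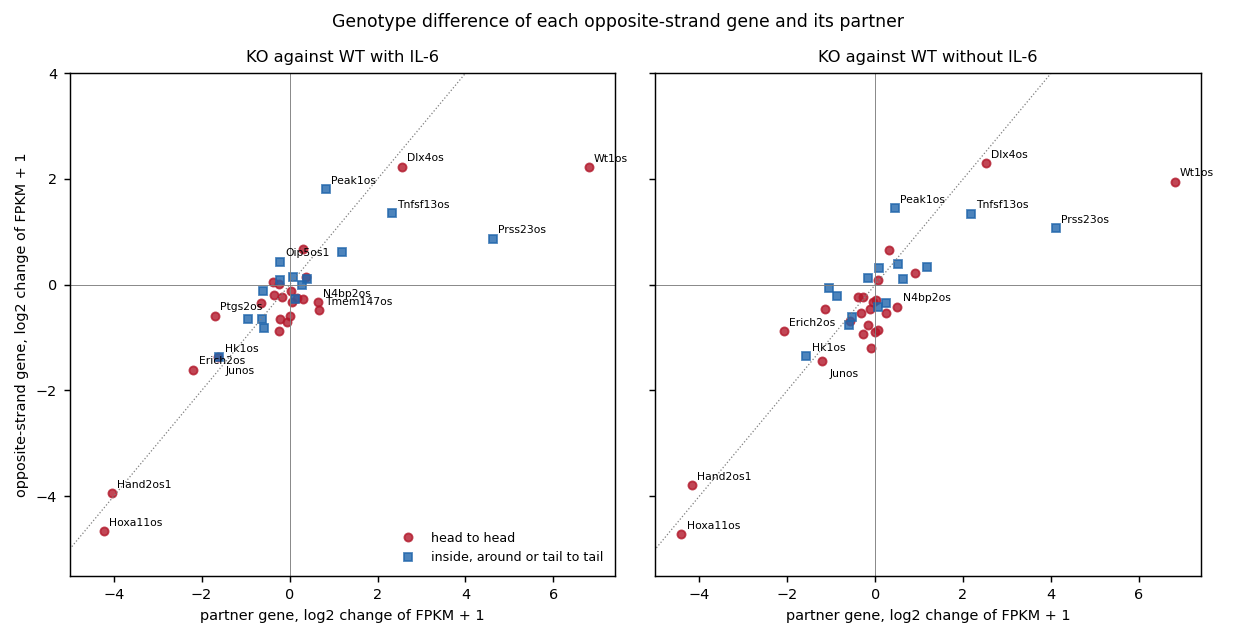
Change of each opposite-strand gene (vertical axis, log2 of FPKM + 1) against that of its partner (horizontal axis) between KO and WT, with IL-6 (left) and without (right), for 39 pairs; circles are head-to-head pairs, squares the other arrangements, and the dotted line marks equal change. Hoxa11os and Hand2os1 lie at the lower left with their partners and Wt1os, Dlx4os, Tnfsf13os and Prss23os at the upper right.

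The same 17 pairs were called in the same direction both with and without IL-6, 7 higher in KO and 10 lower. Those lower in KO were led by 2 developmental transcription factor pairs. Hoxa11os (chromosome 6, 52244393 to 52249799, plus strand), which overlaps the start of the limb and uterus homeobox gene Hoxa11, had 0 and 0 FPKM in KO cells with IL-6 and 0.0393 and 0.0146 FPKM in KO cells without it, against 24.0 and 24.7 FPKM in WT cells with IL-6 and 25.5 and 26.6 FPKM in WT cells without it. The KO libraries held 0 to 2.0 estimated fragments and the WT libraries 780.8 to 941.1. Its change was -4.66 ± 0.06 with IL-6 (limma adjusted p = 1.58e-09) and -4.72 ± 0.06 without it. Hoxa11 itself had at most 0.0130 FPKM in any KO library, against 17.7 to 20.5 FPKM in WT libraries (change -4.22 with IL-6, -4.41 without). Transcripts of Hoxa11os that share no base with Hoxa11 gave a change of -4.64 with IL-6 and -4.72 without it.

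Hand2os1 (chromosome 8, 57281117 to 57324233, minus strand) runs head to head with Hand2, a basic helix-loop-helix factor of heart and limb. It had 0.568 and 0.0216 FPKM in KO cells with IL-6 and 0.321 and 0.186 FPKM in KO cells without it, against 19.9 and 17.0 FPKM in WT cells with IL-6 and 15.1 and 17.6 FPKM in WT cells without it. All 4 WT libraries lay far above all 4 KO libraries, which held at most 4.4 estimated fragments each. Hand2os1-208, whose 286 bases all lie in Hand2 exons, made up 81.73% of the summed Hand2os1 level in KO libraries and 0% in WT libraries. The change of the gene was -3.94 ± 0.19 with IL-6 and -3.79 ± 0.19 without it (limma adjusted p = 1.11e-06 and 1.46e-06). Hand2os1 transcripts without a base in common with Hand2 gave -4.17 with IL-6 and -3.89 without it. Hand2 had 0.923 and 1.26 FPKM in KO cells with IL-6 and 1.05 and 1.14 FPKM in KO cells without it, against 33.6 and 33.4 FPKM in WT cells with IL-6 and 37.3 and 36.1 FPKM in WT cells without it, also without overlap between genotypes, and its change was -4.05 with IL-6 and -4.17 without it.

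Junos (chromosome 4, 95051534 to 95167318, plus strand) has its outermost annotated start within Jun, which encodes a subunit of the transcription factor AP-1. Its level was 0.233 and 0.236 FPKM in KO cells with IL-6 and 0.298 and 0.232 FPKM in KO cells without it, against 2.18 and 2.21 FPKM in WT cells with IL-6 and 2.27 and 2.57 FPKM in WT cells without it, and the groups did not overlap by genotype. The KO libraries rested on 5.1 to 5.3 estimated fragments and the WT libraries on 40.7 to 55.2. Junos-207, a transcript that shares 232 bases with Jun, made up 62.67% of the summed Junos level in KO libraries and 11.38% in WT libraries. Junos-205, the most abundant Junos transcript in WT libraries (34.1%), starts outside Jun and shares no base with it. The change of the gene was -1.37 ± 0.09 with IL-6 and -1.43 ± 0.09 without it (limma adjusted p = 5.02e-06 and 4.15e-06). Jun had 14.6 and 16.2 FPKM in KO cells with IL-6 and 16.1 and 14.9 FPKM in KO cells without it, against 50.8 and 47.7 FPKM in WT cells with IL-6 and 37.5 and 36.8 FPKM in WT cells without it, again lower in every KO library, with changes of -1.62 with IL-6 and -1.21 without it. Junos transcripts without a base in common with Jun gave -1.43 with IL-6 and -1.53 without it.

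Rab10os, tail to tail with the membrane-traffic GTPase gene Rab10, had 7.67 and 8.74 FPKM in KO cells with IL-6 and 8.18 and 8.71 FPKM in KO cells without it, against 15.9 and 14.6 FPKM in WT cells with IL-6 and 15.4 and 14.6 FPKM in WT cells without it. KO libraries were lower throughout, with a change of -0.82 ± 0.08 with IL-6 and -0.76 ± 0.08 without it (limma adjusted p = 3.63e-05 and 5.72e-05). Rab10 ranged over 38.9 to 40.1 FPKM in KO libraries and 59.1 to 61.3 FPKM in WT libraries (-0.59 with IL-6, -0.59 without). Rab10os transcripts without a base in common with Rab10 gave a smaller change, -0.65 with IL-6 and -0.65 without it. Cep83os starts 78 bases from Cep83, a gene of the centriole's distal appendages, and had 1.58 and 1.23 FPKM in KO cells with IL-6 and 1.41 and 1.28 FPKM in KO cells without it, against 2.72 and 2.78 FPKM in WT cells with IL-6 and 3.39 and 3.61 FPKM in WT cells without it. It was lower in every KO library (-0.64 ± 0.09 with IL-6, -0.94 ± 0.09 without; limma adjusted p = 4.64e-04 and 5.73e-05). Cep83 differed by less, at 13.1 to 13.9 FPKM in KO libraries and 15.7 to 16.8 FPKM in WT libraries, with changes of -0.23 with IL-6 and -0.28 without it.

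The other pairs called lower in both comparisons were Brip1os, Erich2os, Hk1os, Ptgs2os and Stamos with their partners. Hk1os lies inside Hk1, the gene of hexokinase 1, and was at 0.640 to 1.53 FPKM in KO libraries and 3.04 to 5.06 FPKM in WT libraries, with Hk1 at 27.4 to 30.0 FPKM in KO and 86.6 to 89.6 FPKM in WT. The change of Hk1os was -1.37 with IL-6 and -1.35 without it. Hk1os transcripts without a base in common with Hk1 gave -1.03 with IL-6 and -1.51 without it. Ptgs2os stood at 0.361 to 0.494 FPKM in KO and 0.874 to 1.26 FPKM in WT, and Ptgs2, which encodes the prostaglandin synthase COX-2, at 4.16 to 5.22 FPKM in KO and 10.5 to 19.2 FPKM in WT. Erich2os was at 0 to 0.25 FPKM in KO, where it rested on at most 4.0 estimated fragments, and at 0.695 to 2.32 FPKM in WT. Its same-strand neighbour Gad1os was at 0 to 0.119 FPKM in KO and 1.32 to 2.96 FPKM in WT. Gad1, which encodes a glutamate decarboxylase and was not tested, was listed at 0 in all KO libraries and was at 0.0968 to 0.384 FPKM in WT libraries.

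Of the pairs higher in KO, Wt1os and Wt1 were listed at 0 in all 4 WT libraries. Wt1os (chromosome 2, 105076538 to 105126510, minus strand) had 4.24 and 3.15 FPKM with IL-6 and 2.91 and 2.81 FPKM without it in KO cells (143.0 to 196.8 estimated fragments), and Wt1, a zinc-finger factor of kidney, gonad and mesothelium, had 106 and 114 FPKM with IL-6 and 113 and 109 FPKM without it. The change of Wt1os was 2.22 ± 0.12 with IL-6 and 1.95 ± 0.12 without it (limma adjusted p = 1.78e-06 and 3.90e-06); no fold is given against 0. The level of Wt1 moved with the mesothelial markers given above, and their part in this difference was not tested. Wt1os shares no exonic base with Wt1 although their starts are 19 bases apart.

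Peak1os (chromosome 9, 56257890 to 56267780, plus strand), inside the pseudokinase gene Peak1, was also listed at 0 in all 4 WT libraries and had 2.41 and 2.57 FPKM with IL-6 and 1.73 and 1.72 FPKM without it in KO cells. Its change was 1.80 ± 0.09 with IL-6 and 1.45 ± 0.09 without it (limma adjusted p = 9.09e-07 and 3.27e-06). Peak1 was expressed in all libraries, with 21.3 and 21.2 FPKM in KO cells with IL-6 and 21.3 and 20.6 FPKM in KO cells without it, against 11.8 and 11.4 FPKM in WT cells with IL-6 and 15.1 and 15 FPKM in WT cells without it. It was higher in every KO library, by 0.82 with IL-6 and 0.45 without it.

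Dlx4os (chromosome 11, 95145052 to 95159047, plus strand), head to head with the homeobox gene Dlx4, had 4.11 and 3.63 FPKM in KO cells with IL-6 and 3.42 and 4.74 FPKM in KO cells without it, against 0.0171 and 0.0504 FPKM in WT cells with IL-6 and 0.0332 and 0.0155 FPKM in WT cells without it. WT libraries held 1.0 to 3.0 estimated fragments and KO libraries 188.8 to 290.1, without overlap (2.23 ± 0.13 with IL-6, 2.30 ± 0.13 without; limma adjusted p = 3.01e-06 and 2.73e-06). Dlx4 followed the same pattern, at 5.21 to 6.03 FPKM in KO libraries and 0.114 to 0.136 FPKM in WT libraries (2.56 with IL-6, 2.52 without).

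Tnfsf13os reaches around Tnfsf13, which encodes the cytokine APRIL. Its level was 3.03 and 2.87 FPKM in KO cells with IL-6 and 3.38 and 3.0 FPKM in KO cells without it, against 0.454 and 0.647 FPKM in WT cells with IL-6 and 0.705 and 0.592 FPKM in WT cells without it, higher in every KO library (1.35 ± 0.10 with IL-6, 1.35 ± 0.10 without; limma adjusted p = 1.05e-05 and 1.13e-05). Tnfsf13 was at 6.37 to 8.38 FPKM in KO and 0.591 to 0.895 FPKM in WT, with changes of 2.32 with IL-6 and 2.18 without it. Sp3os, head to head with the transcription factor gene Sp3, had 12.2 and 11.9 FPKM in KO cells with IL-6 and 13.3 and 12.8 FPKM in KO cells without it, against 6.83 and 7.54 FPKM in WT cells with IL-6 and 8.21 and 7.56 FPKM in WT cells without it. It was higher in every KO library (0.67 ± 0.07 with IL-6, 0.66 ± 0.07 without; limma adjusted p = 5.39e-05 and 6.13e-05), as was Sp3, at 45.7 to 48.0 FPKM in KO and 36.4 to 39.0 FPKM in WT. Prss23os and Hoxb3os complete this group. Prss23, which encodes a secreted serine protease, was at 277 to 309 FPKM in KO libraries and 11.2 to 17.0 FPKM in WT libraries, and Prss23os, which shares 54.3% of its exonic length with it, at 0.749 to 1.32 FPKM in KO and 0 to 0.0666 FPKM in WT. Hoxb3os was at 0.972 to 1.43 FPKM in KO and 0.412 to 0.661 FPKM in WT, and the homeobox gene Hoxb3 at 6.71 to 7.34 FPKM in KO and 2.35 to 2.67 FPKM in WT. The Hoxb3os call without IL-6 (adjusted p = 0.0352) ended when any of the 4 untreated libraries was left out and with no filter (adjusted p 0.0556 to 0.142).

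**Figure D3:**
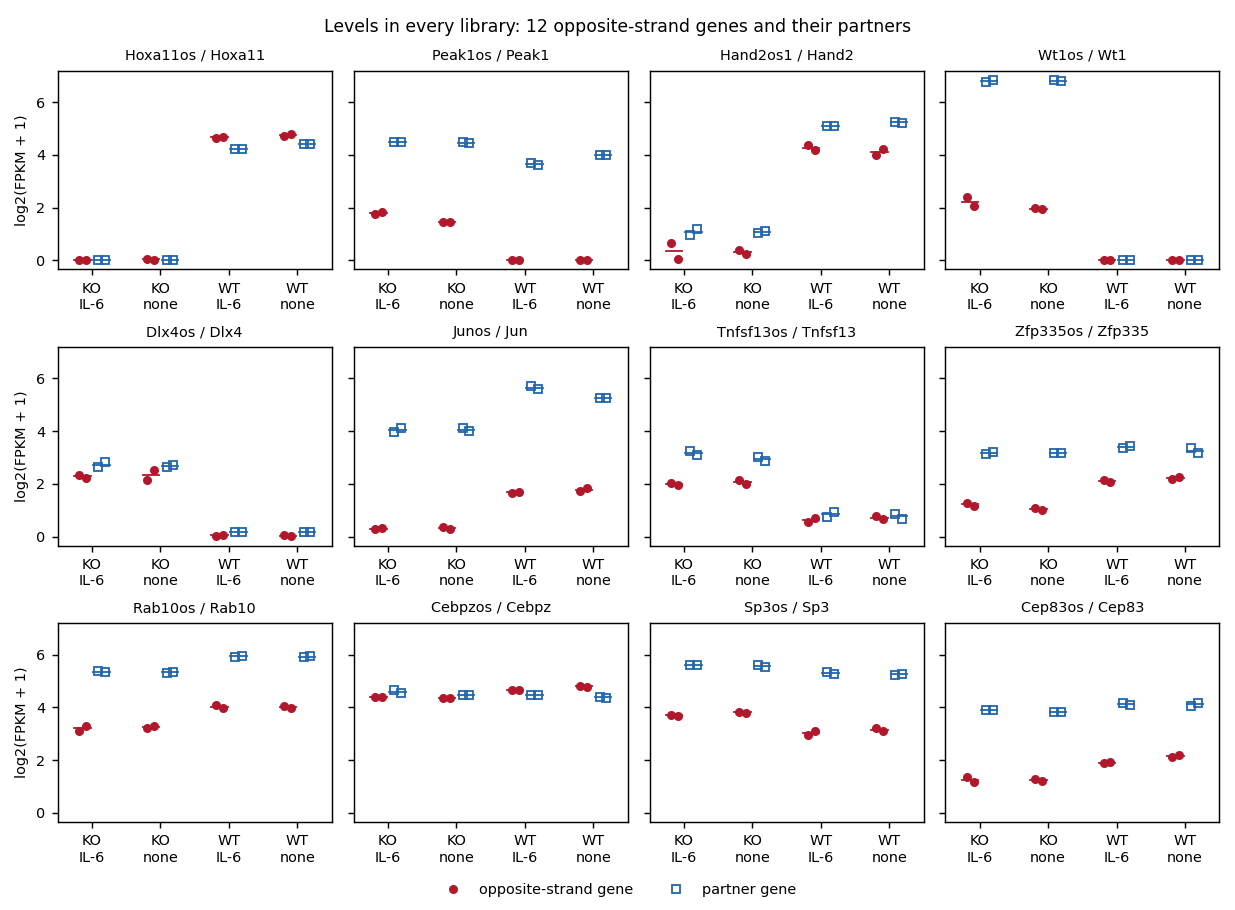
Level in every library, as log2(FPKM + 1), of the 12 opposite-strand genes with the smallest adjusted p (filled circles) and their partners (open squares), in KO cells with IL-6, KO cells without, WT cells with IL-6 and WT cells without; bars are means of 2 libraries. Hoxa11os, Hand2os1 and Junos sit low in KO with their partners, Wt1os, Dlx4os and Tnfsf13os sit high in KO, and Zfp335os and Cebpzos differ while their partners stay close.

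Some members differed while their partners differed little. Zfp335os, head to head with the zinc-finger gene Zfp335, had 1.45 and 1.24 FPKM in KO cells with IL-6 and 1.10 and 0.987 FPKM in KO cells without it, against 3.46 and 3.17 FPKM in WT cells with IL-6 and 3.48 and 3.83 FPKM in WT cells without it. All KO libraries were lower, with a change of -0.88 ± 0.09 with IL-6 and -1.19 ± 0.09 without it (limma adjusted p = 6.07e-05 and 1.18e-05). Zfp335 had 7.86 and 8.18 FPKM in KO cells with IL-6 and 7.88 and 7.94 FPKM in KO cells without it, against 9.36 and 9.80 FPKM in WT cells with IL-6 and 9.15 and 8.00 FPKM in WT cells without it, and its change of -0.10 ± 0.07 without IL-6 was not called (adjusted p = 0.23). With IL-6 it was called at -0.23 ± 0.07 (adjusted p = 0.0194), a call that ended without KO replicate 1 with IL-6, without WT replicate 2 with IL-6 or with equal library totals (adjusted p 0.0815 to 0.0947).

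Cebpzos, a coding gene tail to tail with Cebpz, had 19.8 and 20.0 FPKM in KO cells with IL-6 and 19.6 and 19.7 FPKM in KO cells without it, against 24.3 and 24.0 FPKM in WT cells with IL-6 and 27.2 and 26.3 FPKM in WT cells without it. KO libraries lay below all WT libraries, by -0.27 ± 0.04 with IL-6 and -0.43 ± 0.04 without it (limma adjusted p = 5.90e-04 and 4.47e-05). Cebpz was called in neither comparison, at 20.8 to 24.2 FPKM in KO libraries and 19.7 to 21.3 FPKM in WT libraries (0.12 ± 0.05 with IL-6, 0.08 ± 0.05 without). Wdr83os was called lower (-0.59 ± 0.08 with IL-6, -0.45 ± 0.08 without) with Wdr83 called in neither comparison (0.00 ± 0.07 and -0.12 ± 0.07 with and without IL-6). Ccpg1os was called lower in both comparisons (-0.70 ± 0.11 with IL-6, -0.76 ± 0.11 without), and its partner Ccpg1 changed by -0.06 ± 0.05 with IL-6, not called, and -0.17 ± 0.05 without it. Whether a member's change differed from that of its partner was not tested.

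Member and partner were called in opposite directions in 3 of 23 pairs with IL-6 and in 1 of 21 without it. Over the other opposite-strand pairs it was 284 of 1070 with IL-6 and 287 of 1049 without it. Whether these shares differ was not tested. N4bp2os, head to head with N4bp2, had 1.12 and 0.886 FPKM in KO cells with IL-6 and 0.713 and 0.886 FPKM in KO cells without it, against 1.61 and 1.43 FPKM in WT cells with IL-6 and 1.28 and 1.53 FPKM in WT cells without it, lower in KO by -0.33 ± 0.11 with IL-6 and -0.42 ± 0.11 without it (limma adjusted p = 0.0256 and 0.00962). N4bp2 had 7.68 and 8.23 FPKM in KO cells with IL-6 and 8.30 and 8.46 FPKM in KO cells without it, against 5.37 and 4.14 FPKM in WT cells with IL-6 and 5.41 and 5.85 FPKM in WT cells without it and was higher in every KO library (0.65 ± 0.10 with IL-6, 0.50 ± 0.10 without). The N4bp2os call with IL-6 ended without KO replicate 2 or WT replicate 1 of the IL-6 groups, with equal library totals and with no filter (adjusted p 0.0547 to 0.133), and the call without IL-6 ended without KO replicate 1 or WT replicate 2 of the untreated groups (0.0558 to 0.0576). These genes share exonic bases (12.9% of N4bp2os).

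Oip5os1, tail to tail with the centromere gene Oip5 and 24172 bases from it start to start, had 42.7 and 44.1 FPKM in KO cells with IL-6 and 43.8 and 40.6 FPKM in KO cells without it, against 31.7 and 32.1 FPKM in WT cells with IL-6 and 32.1 and 34.9 FPKM in WT cells without it. It was higher in every KO library (0.43 ± 0.05 with IL-6, 0.32 ± 0.05 without; limma adjusted p = 2.27e-04 and 0.00115). Oip5 had 15.6 and 15.4 FPKM in KO cells with IL-6 and 15.6 and 16.5 FPKM in KO cells without it, against 17.5 and 18.7 FPKM in WT cells with IL-6 and 15.5 and 14.7 FPKM in WT cells without it; it was called lower in KO with IL-6 (-0.21 ± 0.05, adjusted p = 0.00893) and not without it (0.09 ± 0.05). The Oip5 call ended without WT replicate 2 with IL-6 and with equal library totals (adjusted p 0.0591 to 0.0632). Tmem147os was lower in KO with IL-6 (-0.48 ± 0.16, limma adjusted p = 0.0266) and not called without it (0.23 ± 0.16), with 2.60 and 3.73 FPKM in KO cells with IL-6 and 3.84 and 3.24 FPKM in KO cells without it, against 4.96 and 4.59 FPKM in WT cells with IL-6 and 3.35 and 2.45 FPKM in WT cells without it. Tmem147, which encodes a protein of the endoplasmic reticulum membrane, had 34.0 and 31.6 FPKM in KO cells with IL-6 and 32.7 and 37.4 FPKM in KO cells without it, against 19.6 and 20.7 FPKM in WT cells with IL-6 and 17.9 and 18.2 FPKM in WT cells without it and was higher in every KO library (0.68 with IL-6, 0.92 without). The Tmem147os call ended without KO replicate 1 or either WT replicate of the IL-6 groups and with no filter (adjusted p 0.0634 to 0.160).

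Among the remaining members, Ccpg1os, Gad1os, Hoxd3os1 and Wdr83os were called lower in both comparisons. Atad3aos, Etaa1os, Fbxl12os, Zbtb11os1 and Zeb2os were called lower without IL-6, with changes from -0.89 for Atad3aos to -0.34 for Fbxl12os, and Foxd2os was called higher (0.30). Atad3aos and Etaa1os reached 1 FPKM in untreated WT libraries alone, so the rule fixed the direction of these calls in part. They rested on at most 13.8 (Atad3aos) and 16.8 (Etaa1os) estimated fragments in any library. With IL-6 their changes were 0.02 and -0.25, not called. Dnm3os, Map2k3os and Rab26os were called lower with IL-6 (-0.65, -0.32 and -0.66), and Chrna1os higher (0.86). Brd3os, Ccdc142os, Emx2os, Ino80dos, Med9os, Slc7a6os and Taco1os were called in neither comparison. Zeb2, a transcription factor of mesenchymal and neural development, was called lower in KO (-0.61 with IL-6, -0.53 without) and stood at 9.04 to 12.1 FPKM in KO and 14.8 to 18.3 FPKM in WT, with Zeb2os at 1.15 to 1.74 FPKM in KO and 1.78 to 2.60 FPKM in WT. The homeobox gene Emx2 was called higher with IL-6 (0.37) and stood at 22.5 to 27.4 FPKM in KO and 20.1 to 24.0 FPKM in WT, with Emx2os at 1.15 to 1.61 FPKM in KO and 1.17 to 1.42 FPKM in WT. Slc7a6os, among the most abundant members, kept to 29.9 to 31.4 FPKM in KO and 26.9 to 30.8 FPKM in WT, whereas Slc7a6 was called higher in KO (0.28 with IL-6, 0.63 without). Ccdc142os overlapped between genotypes (1.19 to 1.79 FPKM in KO, 0.665 to 1.61 FPKM in WT), as did Brd3os (5.14 to 5.91 FPKM in KO, 4.61 to 5.48 FPKM in WT). A call past the threshold in 1 of the 2 comparisons is not shown to differ between them. When single libraries were left out, the calls of Chrna1os, Map2k3os and Stamos with IL-6 (adjusted p 0.0525 to 0.240 where they ended) and those of Fbxl12os, Foxd2os, Hoxd3os1 and Ptgs2os without IL-6 (0.0501 to 0.234) ended for at least 1 library. The Brip1os call with IL-6 ended with equal library totals (adjusted p = 0.0622).

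A list of 38 other lncRNAs was also read, with cis-acting, antisense and host gene transcripts but also others such as Neat1, Malat1 and Hotair. It holds no member and 1 gene with an os ending, Dio3os, at most 0.753 FPKM in any library. Of the 38, 18 were tested. With IL-6, 9 were called higher in KO and 4 lower (13 of 18, against 71.7% of all genes). Without IL-6, 11 were called higher and 6 lower (17 of 18, against 71% of all genes). H19, an imprinted lncRNA, was higher (2.14 ± 0.07 with IL-6, 1.87 ± 0.07 without), as was Mir99ahg, the host gene of a microRNA cluster (2.42 ± 0.13 and 2.53 ± 0.13 with and without IL-6). Neat1, the scaffold of paraspeckles, was lower (-1.44 ± 0.08 with IL-6, -1.09 ± 0.08 without). Xist, also in this list, was higher as given above. Of 63 tested Hox and other positional transcription factor genes, a list that holds Hoxa11, Hoxb3, Hand2, Emx2, Wt1 and Zeb2 too, 16 were called higher and 45 lower in KO with IL-6, and 14 higher and 44 lower without it. Of all genes, 36.9% were called higher and 34.8% lower with IL-6, and 36.4% and 34.5% without it.

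IL-6 changed few members. In KO cells 0 of 43 members and 0 of 39 partners were called by limma, against 0.0219% of all genes (3 of 13693). An unadjusted p under 0.05 was reached in KO by 4 members and 2 partners, against 1025 of the 13693 genes. In WT cells 1 member and 7 partners were called, 2.3% and 17.9%, against 15.7% of all genes (8.3% higher and 7.41% lower). An unadjusted p under 0.05 was reached in WT by 9 members and 8 partners, against 3993 of the 13693 genes. With library totals set equal, 34.8% of all calls in WT were higher, against 52.8% as deposited. Calls in WT were fewer among genes at low levels: of genes with a mean under 5 FPKM, which include 30 of the 43 members, 11.5% were called, and of genes at 5 FPKM or more 17.3%. Of 4 adipocyte markers, Fabp4 was at 0.0693 and 0.0892 FPKM with IL-6 and 0.187 and 0.0338 FPKM without it in KO cells. In WT cells it was at 28.9 and 32.7 FPKM with IL-6 and 6.44 and 7.45 FPKM without it (change 2.0 ± 0.11, adjusted p = 4.80e-05). Pparg changed by 0.09 ± 0.13 in KO and -0.03 ± 0.13 in WT. Adipoq and Plin1 were at most 0.155 FPKM in any library. Socs3, a direct target of IL-6 signalling, had a change of 0.55 ± 0.06 in KO (adjusted p = 0.0774) and 1.35 ± 0.06 in WT (adjusted p = 2.87e-05).

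The member called in WT was Dnm3os (chromosome 1, 162217623 to 162225550, plus strand), at 4.23 and 4.27 FPKM with IL-6 and 3.5 and 2.77 FPKM without it (change 0.35 ± 0.09, limma adjusted p = 0.0454). Both WT libraries with IL-6 lay above both without it. The call ended under 11 of the alternatives, among them leaving out either WT library with IL-6, WT replicate 2 without IL-6 or any KO library (adjusted p 0.0575 to 0.167). In KO cells Dnm3os had 2.35 and 2.32 FPKM with IL-6 and 2.56 and 2.53 FPKM without it. Dnm3, the dynamin gene around it, was not called (-0.29 ± 0.16).

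Of the partners, Ptgs2 had the largest change with IL-6. It stood at 19.2 and 17.5 FPKM with IL-6 and 10.5 and 11.4 FPKM without it in WT cells (0.69 ± 0.08, limma adjusted p = 0.00205), and at 5.22 and 4.65 FPKM with IL-6 and 4.71 and 4.16 FPKM without it in KO cells (0.13 ± 0.08). Ptgs2os, which starts 68 bases away from it, had 0.987 and 1.26 FPKM with IL-6 and 0.874 and 1.17 FPKM without it in WT cells, with overlapping groups and a change of 0.07 ± 0.12 that was not called. Jun had 50.8 and 47.7 FPKM with IL-6 and 37.5 and 36.8 FPKM without it in WT cells (0.40 ± 0.06, adjusted p = 0.00713; 0.0501 without WT replicate 1 with IL-6), while Junos had 2.18 and 2.21 FPKM with IL-6 and 2.27 and 2.57 FPKM without it (-0.10 ± 0.09, not called). In none of the 7 pairs was the member called.

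Slc7a6, a transporter of cationic and neutral amino acids, was at 40.3 and 41.6 FPKM with IL-6 and 29.0 and 30.6 FPKM without it in WT cells (0.45 ± 0.06, limma adjusted p = 0.00215), and Slc7a6os changed by 0.09 ± 0.06. Oip5 was at 17.5 and 18.7 FPKM with IL-6 and 15.5 and 14.7 FPKM without it (0.25 ± 0.05, adjusted p = 0.0231), a call that ended without WT replicate 2 with IL-6 or WT replicate 2 without it (0.111 to 0.117), and Oip5os1 changed by -0.07 ± 0.05. The other 3 partners were lower with IL-6 in WT cells. Map2k3, a kinase upstream of p38, was at 30.0 and 30.9 FPKM with IL-6 and 39.9 and 37.1 FPKM without it (-0.33 ± 0.05, adjusted p = 0.0041), and Map2k3os changed by -0.06 ± 0.11. Peak1 changed by -0.35 ± 0.04 (adjusted p = 0.0022), with Peak1os listed at 0 in all WT libraries. Prss23 was at 11.5 and 11.2 FPKM with IL-6 and 17.0 and 14.2 FPKM without it (-0.42 ± 0.08, adjusted p = 0.0102; 0.0589 without WT replicate 2 with IL-6), and Prss23os was at or near 0.

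**Figure D4:**
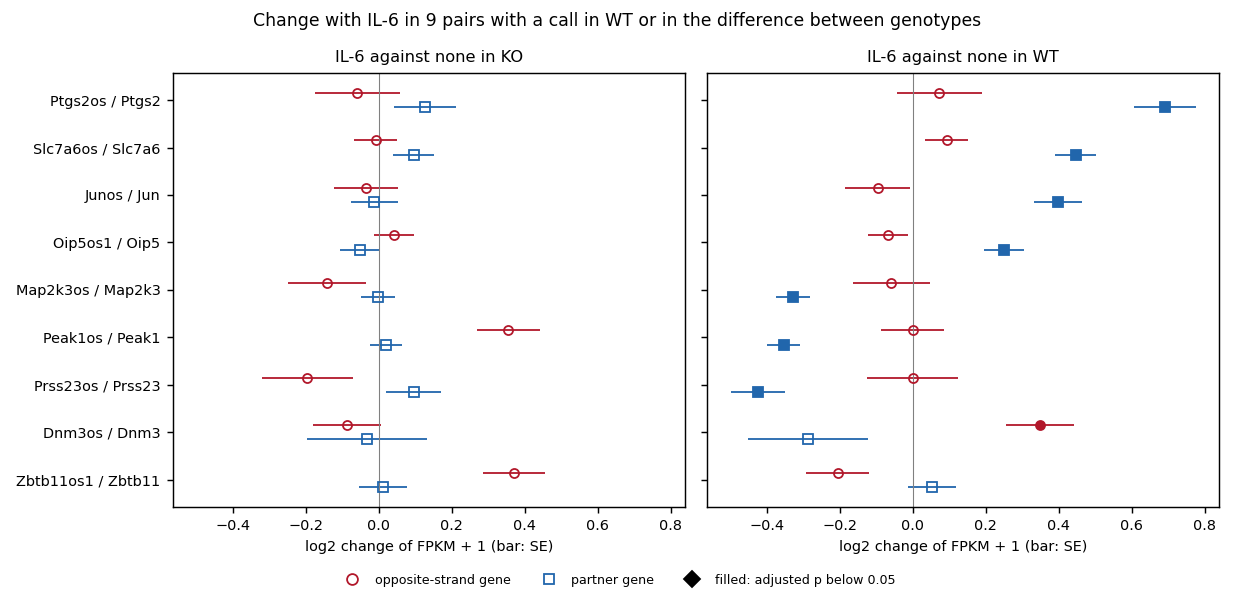
Change with IL-6 (log2 of FPKM + 1, bars are standard errors) in KO cells (left) and WT cells (right) for the 9 pairs in which either gene was called in WT or in the difference between the genotypes; circles are opposite-strand genes, squares partners, and filled symbols have an adjusted p below 0.05. In WT 7 partners and Dnm3os are filled, and in KO none.

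The difference between the IL-6 changes, KO minus WT, was called for 1 member and 6 partners, 2.3% and 15.4%, against 6.06% of all genes (2.54% with a higher and 3.52% with a lower value in KO). Zbtb11os1, head to head with the zinc-finger gene Zbtb11, had 2.66 and 3.14 FPKM in KO cells with IL-6 and 1.91 and 2.11 FPKM in KO cells without it, against 2.73 and 2.80 FPKM in WT cells with IL-6 and 3.30 and 3.38 FPKM in WT cells without it. IL-6 libraries were above untreated ones in KO and below them in WT, and the difference was 0.58 ± 0.12 (limma adjusted p = 0.0367), while neither change alone was called. Zbtb11os1 shares 36.2% of its exonic length with Zbtb11, whose own difference was -0.04 ± 0.09. The partners were Peak1 (0.37 ± 0.06), Prss23 (0.52 ± 0.11) and Map2k3 (0.33 ± 0.07), lower with IL-6 in WT, and Ptgs2 (-0.56 ± 0.12), Jun (-0.41 ± 0.09) and Slc7a6 (-0.35 ± 0.08), higher with it in WT. All 7 calls ended under at least 7 of the alternatives, most of them single libraries left out (adjusted p 0.0513 to 0.144 where a call ended).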

How the data were processed

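RNA of 8 libraries was measured, 2 in each of the 4 groups set by the labels, made with a stranded kit for mRNA per the labels' protocols. The submitters' processing notes name HISAT2, Cufflinks 2.2.1 and the build GRCm38.p6, and the deposited unit is FPKM, 1 value for each transcript and library; a strand setting for counting is not given in the sources used here. FPKM of the 142869 transcripts were summed per gene name. Depth was fitted per library from the steps of low values (92.0 to 93.9% within 0.1 of a whole fragment), and estimated fragments come from this fit; they cover counting error only.

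The 13693 genes that reached 1 FPKM in 2 or more libraries were fitted on the log2(FPKM + 1) scale (limma 3.58.1, R 4.3.3) as 4 group means over all 8 libraries, with a trend of the variance on level; p-values were adjusted by Benjamini-Hochberg over these genes. The 5 comparisons were KO against WT with and without IL-6, IL-6 against none in each genotype, and the difference between these changes. The procedure was also run on simulated data, with changes added in WT libraries with IL-6 only and no other difference between groups. The data here differ from that setting, as 71% of genes were called between genotypes without IL-6. No outcome of the simulation is used here. Arrangement came from GENCODE M21, except for Oip5os1, matched by a RefSeq synonym. Tables were made with pandas 2.3.3 and numpy 2.4.6 in Python 3.11.15, and figures with matplotlib 3.10.9.

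The members and gene lists were chosen with earlier results of these data known. Values in every library are given for the 12 members with the smallest adjusted p in any comparison and for pairs called in opposite directions. Fibroblast, macrophage, muscle, neural, adipocyte and erythroid marker lists were also read. Libraries were pairwise different in their values, and the 2 of a group correlated at 0.9927 to 0.9935.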

Additional observations from a re-analysis of the deposited data

Results flagged for a closer look

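For 7 genes the change with IL-6 differed between the genotypes by the test of the difference itself (limma, KO change minus WT change, adjusted p below 0.05). For Zbtb11os1 the difference was 0.58 (adjusted p = 0.0367), with changes of 0.37 in KO and -0.21 in WT. It ended without KO replicate 2 with IL-6, without either untreated KO library and without any WT library (adjusted p over all alternatives that ended it 0.0523 to 0.115). For Peak1 it was 0.37, for Map2k3 0.33 and for Prss23 0.52, with changes in KO of 0.02, -0.00 and 0.10 and in WT of -0.35, -0.33 and -0.42. For Ptgs2 it was -0.56, for Slc7a6 -0.35 and for Jun -0.41, with changes in KO of 0.13, 0.10 and -0.01 and in WT of 0.69, 0.45 and 0.40. The calls of Jun, Ptgs2 and Slc7a6 ended without any of the 8 libraries (adjusted p 0.0514 to 0.144). That of Peak1 ended without any library but WT replicate 1 with IL-6 (0.0513 to 0.0704), that of Map2k3 without any but the untreated WT replicate 2 (0.0659 to 0.116), and that of Prss23 without any KO library and without WT replicate 1 or 2 of the IL-6 group (0.0848 to 0.117). In each genotype comparison the groups also differ in sex and cell markers, and their part in these differences was not tested.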

How the results depend on the processing

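Of 137 called values of members and partners, 36 lost the call under at least 1 alternative and 0 changed direction. Alternatives were quantile normalization, equal library totals, no filter, a pseudocount of 0.1, a replicate block and leaving out each library. Using transcripts without exonic overlap was added after seeing the data and left 25 members to test. Dlx4os, Tnfsf13os, Sp3os, Zfp335os, Peak1os, Prss23os, Cebpzos, Hoxb3os and N4bp2os were among those that could not be tested in this way.

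For members between genotypes, 18 (with IL-6) and 17 (without) were called over those 25, fewer because fewer were tested. Leaving out 1 library gave 25 to 30 members with IL-6 and 27 to 31 without, and 26 to 32 and 26 to 29 partners. For IL-6 in WT, 1 member was called as reported, 4 with quantile normalization, 0 with the pseudocount of 0.1, 2 with the replicate block, 2 without exonic overlap, and 0 to 2 with 1 library left out; partners gave 5 to 7. For the difference between IL-6 changes, 1 member was called as reported, 0 with quantile normalization, 0 with no filter, 0 without exonic overlap, 2 with the replicate block, and 0 to 1 with 1 library left out. Of partners, 6 were called as reported, 3 with equal totals, 2 with no filter, 3 with the replicate block, and 0 to 2 with 1 library left out. In KO, IL-6 gave 0 members and 0 partners under each alternative. The cause of these shifts was not tested.

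Replicate numbers were not taken to pair libraries, since the deviations of same-numbered libraries correlated at -0.097 to 0.055. With the replicate block, 29 members with IL-6 and 31 without were called between genotypes. Members at few fragments limit what could be seen: 30 of 43 had a mean under 5 FPKM, where the median standard error was 0.109, against 0.061 for genes at 5 FPKM or more.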
